A study of Mus musculus with 2 samples.

Results

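The genes described here are 10 cytotoxic granule and natural killer genes of the mouse, taken by gene symbol from a table of 54532 genes. They are the granzyme genes Gzma, Gzmb and Gzmk, the perforin gene Prf1, the granule membrane protein gene Nkg7, the T-box transcription factor genes Eomes and Tbx21, and the receptor genes Klrd1, Klrk1 and Ncr1. All 10 symbols were found once, and 9 averaged at least 1 CPM (counts scaled to the size of the library), with Ncr1 below that limit. RNA came from whole tumours that grew from Hepa1-6 cells, a mouse hepatocellular carcinoma line, in C57bl/6 mice. In the IRF8 tumour the injected cells carried an IRF8-overexpression lentivirus, and in the vector tumour an empty control virus, both with a GFP and a puromycin cassette. The 2 populations were placed on opposite sides of the same host, and each group has 1 library. Tumour and host are both mouse, so reads from tumour cells and from infiltrating host cells carry no mark of origin. The age of the mice, and whether tumours were pooled, are not stated in the labels.

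Cytotoxic T cells and natural killer cells kill target cells by releasing granules. Perforin opens the target membrane, and granzymes are serine proteases that enter through it and cleave proteins inside. Natural killer cells choose targets through activating and inhibitory receptors, several of which are also present on CD8 T cells, and the T-box factors T-bet (Tbx21) and Eomes direct the genes of both lineages. In tumours, granzyme and perforin transcripts are widely read as a sign of such cells, though mouse mast cells can also make granzyme B.

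The IRF8-labelled library held 17316607 counts and the vector-labelled library 20223649. Irf8 had 2578 counts in the IRF8-labelled library and 4178 in the vector-labelled library, a log2 ratio of -0.51 (95% counting interval -0.58 to -0.44), so it was lower in the library that should overexpress it. The libraries are therefore named by their labels, and every direction below rests on those labels. Genes of the tumour line were abundant in both, with Afp at 16458 counts in the IRF8-labelled library and 51825 in the vector-labelled library. Markers of other tissues differed too, with 9 skeletal muscle markers at 306 CPM in the IRF8-labelled library and 7.27 CPM in the vector-labelled library, and 5 hepatocyte and tumour cell markers at 3351 CPM in the IRF8-labelled library and 6889 CPM in the vector-labelled library. Alb and Afp make up most of that sum, while Apob was slightly higher (log2 ratio 0.10, 0.05 to 0.15) and the interval of Hnf4a held 0. Of 6 measured adipocyte markers 5 were at least 2-fold higher, beside 2.59% of all genes tested, with a median log2 ratio of 3.32. The other, Lpl, chosen after its values were seen, had 2692 counts in the IRF8-labelled library and 6107 in the vector-labelled library. With Lpl included, the adipocyte list summed to 275.7 CPM in the IRF8-labelled library and 338.8 CPM in the vector-labelled library. All 3 measured B cell markers had intervals above 0, beside 23.5% of all genes tested. Blk had 31 counts in the IRF8-labelled library and 7 in the vector-labelled library. The part of these tissues and cells in the results below was not tested. With 1 library per group no difference has a replicate check and no p-value was computed. A counting interval covers the sampling of reads only, and not the variation between tumours. In RNA of a whole tumour, fewer cells of a type and less RNA per cell cannot be told apart.

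Of the 10 genes, 5 were lower beyond counting error in the IRF8-labelled library, led by the genes of granzyme B and perforin, and none was higher. The 10 genes summed to 1158 counts in the IRF8-labelled library and 1952 in the vector-labelled library, 1.48-fold lower (1.38 to 1.60) after scaling. The summed level was 66.0 CPM in the IRF8-labelled library and 97.9 CPM in the vector-labelled library. Without Gzmb, a choice made after the values were seen, the sum was 924 counts in the IRF8-labelled library and 1400 in the vector-labelled library, 1.33-fold lower (1.23 to 1.45). The log2 ratio, IRF8-labelled over vector-labelled, was below 0 for 8 of the 10 genes and ranged between -1.05 for Gzmb and 0.05 for Gzmk. Gzmk and Tbx21 were above 0 with intervals that held 0. The median of the 10 ratios was -0.39, beside -0.0012 over the 14775 genes that averaged at least 1 CPM, called measured below.

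Counting intervals lay below 0 for 5 of the 10 genes (Gzma, Gzmb, Prf1, Nkg7 and Klrk1), above 0 for none, and held 0 for 5. Over all genes tested, 25.8% had an interval below 0 and 23.5% above. Gzmb and Prf1 were at least 1.5-fold lower with an interval that excluded 0, which is 2 of 10 beside 5.56% of all genes tested. Gzmb alone was at least 2-fold lower, 1 of 10 beside 2.77%. In the higher direction none of the 10 passed either limit, beside 6.94% of all genes for 1.5-fold and 2.59% for 2-fold. Among the 4978 genes whose mean lay within the CPM range of the 9 genes above the limit, 17.1% had an interval below 0, 8.6% were at least 1.5-fold lower and 4.4% at least 2-fold lower. These shares describe the 2 libraries and are no test of the 10 genes as a group. The shares over all genes tested are also the background for the list and neighbour counts below.

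**Figure D1:**
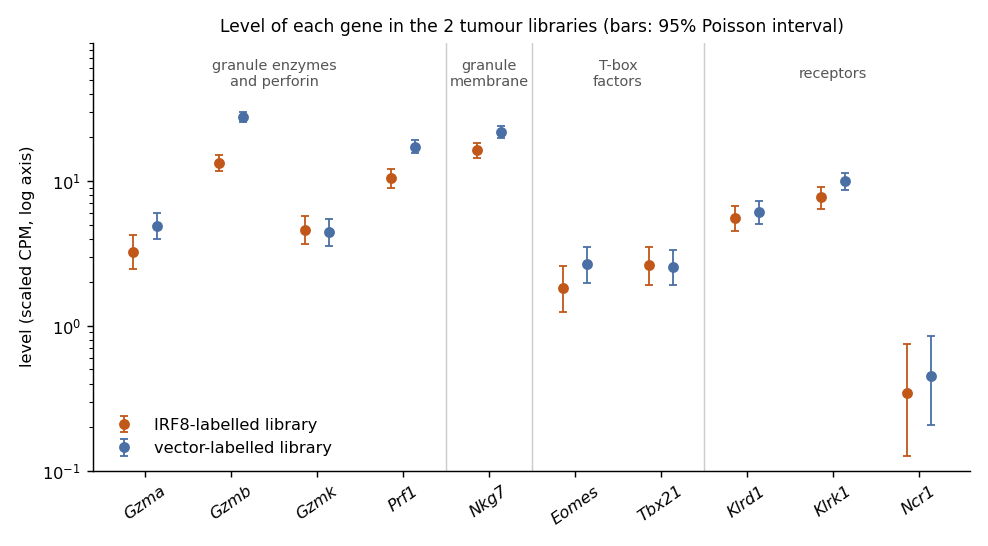
Scaled CPM (log axis) of the 10 genes in the IRF8-labelled library (left point of each pair) and the vector-labelled library (right point), with 95% Poisson intervals. Gzmb at 13.3 CPM in the IRF8-labelled library and 27.7 CPM in the vector-labelled library stands apart, and so does Prf1, while the intervals of Gzmk, Tbx21 and Klrd1 overlap over most of their length.

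Gzmb encodes granzyme B, the granule protease that cleaves caspases and other substrates after aspartate. The gene (ENSMUSG00000015437, chromosome 14, 56258838 to 56262260 on mm10, the build of all coordinates here, minus strand) had 234 counts in the IRF8-labelled library and 552 in the vector-labelled library. Its level was 13.3 CPM (11.7 to 15.1, exact 95% Poisson bounds) in the IRF8-labelled library and 27.7 CPM (25.4 to 30.1) in the vector-labelled library, which is 2.08-fold lower (1.78 to 2.43). The 2 level intervals are far apart, and this is the largest difference among the 10 genes.

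Prf1, the perforin gene (ENSMUSG00000037202), lies on the plus strand of chromosome 10 from 61297833 to 61304680. It had 183 counts in the IRF8-labelled library and 344 in the vector-labelled library. The level was 10.4 CPM (8.97 to 12.0) in the IRF8-labelled library and 17.2 CPM (15.5 to 19.2) in the vector-labelled library, 1.65-fold lower (1.38 to 1.99). The level intervals do not overlap. Gzma encodes granzyme A, a tryptase that cuts after lysine and arginine (ENSMUSG00000023132), and lies on the minus strand of chromosome 13 from 113093825 to 113100981. Gzma had 57 counts in the IRF8-labelled library and 98 in the vector-labelled library. Its level was 3.25 CPM (2.46 to 4.21) in the IRF8-labelled library and 4.91 CPM (3.99 to 5.99) in the vector-labelled library. It was 1.51-fold lower (1.08 to 2.14), and its 2 level intervals overlap. The log2 ratio with a prior count, -0.58, lies just under the 1.5-fold limit, and with DESeq2 scaling or a prior count of 0.5 Gzma passed it, making 3 of 10.

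Gzmk, the gene of granzyme K, another tryptase known from effector memory CD8 T cells, was the granzyme gene whose level was nearly equal. The gene (ENSMUSG00000042385) lies on the minus strand of chromosome 13 from 113171608 to 113225908 and had 81 counts in the IRF8-labelled library and 89 in the vector-labelled library. Its level was 4.61 CPM (3.66 to 5.73) in the IRF8-labelled library and 4.46 CPM (3.58 to 5.49) in the vector-labelled library. The ratio was 1.03 (0.756 to 1.41), so a difference within these bounds was not detectable at this depth. Gzmk is a neighbour of Gzma on chromosome 13, and the Gzma to Gzmk count ratio in the IRF8-labelled library was 0.639 times that in the vector-labelled library, with an interval (0.40 to 1.02) that held 1.

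The make-up of the summed Gzma, Gzmb and Gzmk counts differed between the libraries. The 7 other granzyme genes, with 151 counts in the IRF8-labelled library and 128 in the vector-labelled library, are not in this sum. A share depends on the other genes of the sum, and the level of Gzmk itself was nearly equal. Of the summed Gzma, Gzmb and Gzmk counts, Gzmb took 62.9% (95% Clopper-Pearson interval 57.8 to 67.8) of 372 in the IRF8-labelled library and 74.7% (71.4 to 77.8) of 739 in the vector-labelled library. Gzmk took 21.8% (17.7 to 26.3) in the IRF8-labelled library and 12.0% (9.78 to 14.6) in the vector-labelled library. For both genes these intervals do not overlap between the libraries. Gzma took 15.3% (11.8 to 19.4) in the IRF8-labelled library and 13.3% (10.9 to 15.9) in the vector-labelled library, where the intervals overlap widely. The Gzmb to Gzmk count ratio was 2.15 times lower (1.51 to 3.05, exact conditional interval) in the IRF8-labelled library.

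**Figure D2:**
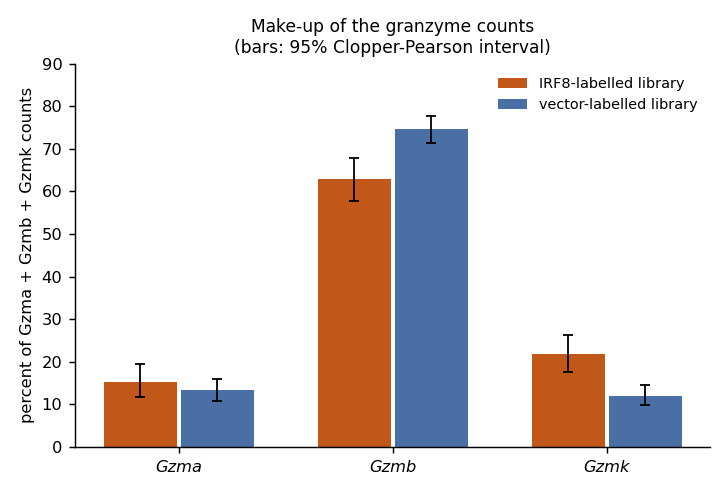
Percent of the summed Gzma, Gzmb and Gzmk counts that each gene took in the IRF8-labelled library (left bar) and the vector-labelled library (right bar), with 95% Clopper-Pearson intervals. Gzmb fills 62.9% in the IRF8-labelled library against 74.7% in the vector-labelled library, and Gzmk 21.8% in the IRF8-labelled library against 12.0% in the vector-labelled library.

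Among the 45 pairs that the 10 genes form, 8 had a count ratio whose interval excluded 1 between the libraries, and 5 of these 8 included Gzmb. Gzmb was lower relative to Gzmk, Nkg7, Tbx21, Klrd1 and Klrk1. The remaining 3 pairs set Prf1 below Gzmk, Tbx21 and Klrd1. Relative to Tbx21, the ratio in the IRF8-labelled library was 2.13 times lower for Gzmb (1.35 to 3.33) and 1.70 times lower for Prf1 (1.07 to 2.69). The intervals are not adjusted for the number of pairs.

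The sequences upstream of the genes with the largest differences, Gzmb and Prf1, are set here beside that of Gzmk, the granzyme gene whose counts were nearly equal, so that the T-box and Runx motifs of these promoters can be compared. They come from RefSeq (GRCm38.p6) and run 5′ to 3′ on the strand of the gene up to its RefSeq start, leaving out bases in GENCODE exons of the gene. For Gzmk the RefSeq start lies inside the gene span given above (113171608 to 113225908). The Gzmk window is therefore upstream of that RefSeq start only, and not of the start of the span at 113225908. For Gzmb the RefSeq start lies outside the gene span, whose start is at 56262260. The bases between 56262260 and the window, which ends at 56262335, are not printed or searched. Distances to the RefSeq start of Gzmb are thus shorter than those to the span. Capitals mark the T-box core GTGTGA, the Runx core TGTGGT and the AP-1 site TGANTCA, on either strand.
Gzmb, chr14:56262335-56262584, minus strand: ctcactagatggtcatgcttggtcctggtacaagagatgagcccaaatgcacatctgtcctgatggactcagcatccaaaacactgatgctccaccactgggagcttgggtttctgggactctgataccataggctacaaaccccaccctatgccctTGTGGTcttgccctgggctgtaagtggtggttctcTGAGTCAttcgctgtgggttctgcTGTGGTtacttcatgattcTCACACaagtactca
Prf1, chr10:61297586-61297832, plus strand: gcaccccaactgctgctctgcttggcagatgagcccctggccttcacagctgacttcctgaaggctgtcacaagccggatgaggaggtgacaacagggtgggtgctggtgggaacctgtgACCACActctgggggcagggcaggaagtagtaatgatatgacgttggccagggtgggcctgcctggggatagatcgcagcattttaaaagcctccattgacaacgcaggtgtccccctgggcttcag
Gzmk, chr13:113180966-113181215, minus strand: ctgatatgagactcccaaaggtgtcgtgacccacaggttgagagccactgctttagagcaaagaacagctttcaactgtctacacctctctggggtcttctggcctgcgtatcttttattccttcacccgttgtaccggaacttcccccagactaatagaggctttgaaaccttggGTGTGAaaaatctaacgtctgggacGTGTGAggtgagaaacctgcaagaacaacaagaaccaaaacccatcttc

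The window of Gzmb holds 1 T-box core with 9 bases between it and the RefSeq start, 2 Runx cores and 1 AP-1 site (TGAGTCA) with 51 bases between it and the start. The window of Prf1 holds 1 Runx core and no T-box core. Gzmk has 2 T-box cores, with 68 and 43 bases between them and the start, and no Runx core. Of the 9 genes with a RefSeq window (Klrd1 has none in the table), 3 held the T-box core, namely Gzmb, Gzmk and Ncr1, beside 12.2% of 27025 windows of 250 bases, 1 per gene (those of Prf1 and Nkg7 were trimmed to 247 and 185 bases at annotated exons). The Runx core was in 6 of 9 beside 14.2%, the AP-1 site in 1 beside 6.87% and the cyclic AMP response element TGACGTCA in none beside 1.62%. No base is shared between these matches in the 3 windows printed. A match describes letters, and binding was not measured.

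Nkg7 encodes a membrane protein of cytotoxic granules that takes part in their release (ENSMUSG00000004612). The gene, on the plus strand of chromosome 7 from 43437073 to 43438249, had 287 counts in the IRF8-labelled library and 437 in the vector-labelled library. Its level was 16.3 CPM (14.5 to 18.4) in the IRF8-labelled library and 21.9 CPM (19.9 to 24.1) in the vector-labelled library. It was 1.34-fold lower (1.15 to 1.56), with level intervals that do not overlap. This is a smaller difference than that of Gzmb, since the Gzmb to Nkg7 count ratio was 1.55 times lower (1.24 to 1.93) in the IRF8-labelled library.

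The T-box factors Tbx21 and Eomes, which act upstream of the granule genes in T cells and natural killer cells, had few counts. Tbx21 (ENSMUSG00000001444, minus strand of chromosome 11 from 97098071 to 97115331) had 46 counts in the IRF8-labelled library and 51 in the vector-labelled library, a ratio of 1.02 (0.673 to 1.56). Eomes (ENSMUSG00000032446, plus strand of chromosome 9 from 118478212 to 118486132) had 32 counts in the IRF8-labelled library and 53 in the vector-labelled library, 1.46-fold lower with an interval from 0.923 to 2.34. Neither gene differed beyond its counting error. The level was 2.62 CPM (1.92 to 3.49) in the IRF8-labelled library and 2.56 CPM (1.90 to 3.36) in the vector-labelled library for Tbx21. For Eomes it was 1.82 CPM (1.25 to 2.57) in the IRF8-labelled library and 2.66 CPM (1.99 to 3.48) in the vector-labelled library. An antisense gene, Gm33460, shares 118 exonic bases with Eomes and had 9 counts in the IRF8-labelled library and 5 in the vector-labelled library. NEBNext Ultra libraries carry no strand mark, and reads over those bases could belong to either gene.

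The receptor genes Klrk1 and Klrd1 had smaller differences than Gzmb. Klrk1 encodes NKG2D, an activating receptor for stress-induced ligands (ENSMUSG00000030149). The gene, on the minus strand of chromosome 6 from 129610323 to 129623864, had 135 counts in the IRF8-labelled library and 198 in the vector-labelled library. Its level was 7.69 CPM (6.45 to 9.10) in the IRF8-labelled library and 9.93 CPM (8.59 to 11.4) in the vector-labelled library, 1.29-fold lower (1.03 to 1.62). The interval excludes 1 by a small margin, and the level intervals overlap. Klrd1 encodes CD94, which pairs with NKG2 proteins to read the nonclassical class I molecule Qa-1 (ENSMUSG00000030165). The gene, on the plus strand of chromosome 6 from 129591782 to 129598775, had 97 counts in the IRF8-labelled library and 121 in the vector-labelled library. Its level was 5.52 CPM (4.48 to 6.74) in the IRF8-labelled library and 6.07 CPM (5.03 to 7.25) in the vector-labelled library. It was 1.10-fold lower with an interval from 0.834 to 1.45, and the level intervals overlap over most of their length.

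Ncr1 encodes NKp46, the receptor that best separates natural killer cells and related innate lymphoid cells from T cells (ENSMUSG00000062524). The gene, on the plus strand of chromosome 7 from 4337724 to 4345164, had 6 counts in the IRF8-labelled library and 9 in the vector-labelled library. Its level was 0.342 CPM (0.125 to 0.744) in the IRF8-labelled library and 0.451 CPM (0.206 to 0.857) in the vector-labelled library. The ratio interval, 0.222 to 2.38, is too wide for any direction. Of 10 natural killer cell markers in the table, 5 reached a mean of 1 CPM, while Klrb1c, Ncr1, Klra8, Klra7 and S1pr5 did not. Klrb1c, which encodes NK1.1, had 14 counts in the IRF8-labelled library and 20 in the vector-labelled library, and the Ly49H gene Klra8 had 2 in the IRF8-labelled library and 11 in the vector-labelled library (both chosen after their values were seen). The 5 that reached 1 CPM had a median log2 ratio of -0.10, with intervals below 0 for 3 (Klra4, Il2rb and Itga2), above 0 for Klre1 and holding 0 for Cd244a. The 10 markers summed to 285.6 CPM in the IRF8-labelled library and 313.1 in the vector-labelled library, most of it from Itga2, which platelets, fibroblasts and epithelial cells also express. Apart from Ncr1, the 10 genes are ones that T cells also use, and how much of the signal came from natural killer cells was not tested.

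Levels per length (TPM, counts divided by the gene length of the deposited table and scaled to the library) put Nkg7 first and Ncr1 last in both libraries. In the IRF8-labelled library Nkg7 was at 54.3 TPM (95% Poisson interval 48.2 to 61.0) and Gzmb at 28.2 (24.7 to 32.0). Klrd1 at 13.1, Prf1 at 12.3, Gzmk at 10.1 and Gzma at 9.80 TPM followed, and the interval of each overlaps that of its neighbour. Klrk1 at 3.25 and Tbx21 at 3.20 TPM were not separated, and Eomes at 1.33 TPM was not separated from Ncr1 at 0.674. In the vector-labelled library Nkg7 was at 70.2 TPM (63.7 to 77.1) and Gzmb at 56.4 (51.8 to 61.3), so that the gap between them was smaller. Prf1 at 19.5, Gzma at 14.3, Klrd1 at 13.9, Gzmk at 9.40, Klrk1 at 4.04, Tbx21 at 3.01, Eomes at 1.87 and Ncr1 at 0.858 TPM followed in the vector-labelled library. Neighbours in that order with overlapping intervals were Gzma and Klrd1, Klrd1 and Gzmk, Klrk1 and Tbx21, Tbx21 and Eomes, and Eomes and Ncr1. The order within the middle of the list depends on the lengths used. The table lists 7183 bases for it, and with its principal transcript of 1270 bases Klrk1 ranked 4 in the IRF8-labelled library and 3 in the vector-labelled library, while the deposited length put it at 7 in both. With principal transcript lengths Prf1 ranked 6 in the IRF8-labelled library and 4 in the vector-labelled library, Gzma 7 in the IRF8-labelled library and 6 in the vector-labelled library, and Gzmk 5 in the IRF8-labelled library and 7 in the vector-labelled library. Nkg7 and Gzmb stayed at ranks 1 and 2, and Tbx21, Eomes and Ncr1 at 8, 9 and 10.

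T cell markers were lower as well, and the 10 genes were set against them. The 14 T cell markers summed to 109.2 CPM in the IRF8-labelled library and 142.0 CPM in the vector-labelled library. Their median log2 ratio was -0.39, with intervals below 0 for 9 of 14, beside 25.8% of all genes tested, and above 0 for none. Cd28, the costimulatory receptor, was 2.26-fold lower (1.72 to 3.00), and Lck, Cd2 and Themis, which serve T cell receptor signalling and adhesion, were 1.74-fold, 1.69-fold and 1.65-fold lower. In contrast, the intervals of 5 of the 14 held 0, namely Cd3d, Cd3e, Cd6, Trac and Trbc1 (named after their values were seen). Cd3e had 114 counts in the IRF8-labelled library and 129 in the vector-labelled library. The T cell receptor constant genes Trac and Trbc1 had 215 and 151 in the IRF8-labelled library and 248 and 150 in the vector-labelled library. The CD8 genes were lower too. Cd8a had 437 counts in the IRF8-labelled library and 607 in the vector-labelled library, and Cd8b1 had 82 in the IRF8-labelled library and 157 in the vector-labelled library. Both intervals lay below 0. Pan-leukocyte markers were closer, at 590.5 CPM in the IRF8-labelled library and 642.4 in the vector-labelled library.

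Per 1000 counts of the T cell markers, the 10 genes together had 604 counts in the IRF8-labelled library and 689 in the vector-labelled library, 1.14-fold lower (1.04 to 1.25). The sum without Gzmb was 482 in the IRF8-labelled library and 494 in the vector-labelled library, a ratio whose interval held 1 (1.03-fold lower, 0.926 to 1.14). That depended on the markers: without Gzmb the sum was 1.03-fold lower per CD8 marker count (0.893 to 1.19), but 1.17-fold lower per count of Cd3d, Cd3e and Cd3g (1.01 to 1.36), 1.23-fold per pan-leukocyte marker count (1.12 to 1.34) and 1.30-fold per macrophage and monocyte marker count (1.20 to 1.42). Setting counts against the T cell markers adds 0.38 to the log2 ratio of every gene alike. On this scale 2 of the 10 genes had an interval below 1, beside 4.57% of all measured genes outside the marker list. Gzmb had 122 per 1000 T cell marker counts in the IRF8-labelled library and 195 in the vector-labelled library, 1.60-fold lower (1.35 to 1.89). Prf1 had 95.4 in the IRF8-labelled library and 121 in the vector-labelled library, 1.27-fold lower (1.05 to 1.55). Nkg7 and Klrk1 had nearly equal values per T cell marker count, at 150 and 70.4 in the IRF8-labelled library and 154 and 69.9 in the vector-labelled library. Gzmb and Prf1 were also the 2 genes with an interval below 1 per count of Cd3d, Cd3e and Cd3g, beside 7.18% of all measured genes, and per count of Cd8a and Cd8b1, beside 4.1%. Per pan-leukocyte marker count 3 genes had such an interval (Nkg7 in addition), beside 14.3%, and per macrophage and monocyte marker count 5 (Gzma, Nkg7 and Klrk1 in addition), beside 21.9%.

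**Figure D3:**
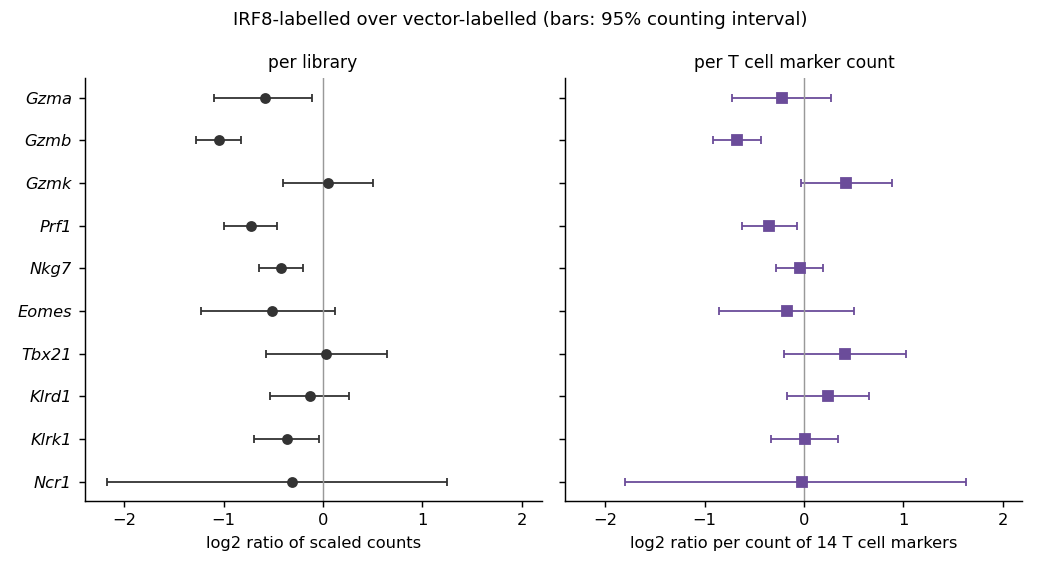
Log2 ratio of each gene, IRF8-labelled over vector-labelled, per library (left panel) and per count of the 14 T cell markers (right panel), with 95% counting intervals. The right panel is shifted upward by 0.38 for every gene, apart from the prior count used on the left, and the intervals of Gzmb and Prf1 lie below 0 in both panels.

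Mast cell markers were lower as well. The 7 genes of that list summed to 19.9 CPM in the IRF8-labelled library and 46.1 CPM in the vector-labelled library. Of the 5 measured ones 4 were at least 2-fold lower, beside 2.77% of all genes tested, at a median of -1.90 on the log2 scale. None of the 7 was at 0 in either library. Cpa3, the mast cell carboxypeptidase gene, had 22 counts in the IRF8-labelled library and 114 in the vector-labelled library, and the chymase gene Cma1 had 30 in the IRF8-labelled library and 148 in the vector-labelled library. The tryptase gene Tpsb2 had 56 counts in the IRF8-labelled library and 244 in the vector-labelled library. Since mouse mast cells can make granzyme B, these values stand beside the Gzmb result, and their part in it was not tested. The remaining measured marker was Kit, the stem cell factor receptor gene, chosen after its values were seen, with 192 counts in the IRF8-labelled library and 184 in the vector-labelled library.

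Plasmacytoid dendritic cells, another cell type that can make granzyme B, had 3 of 5 markers measured. Their defining markers Siglech, with 4 counts in the IRF8-labelled library and 7 in the vector-labelled library, and Ccr9, with 4 in the IRF8-labelled library and 10 in the vector-labelled library, were near the floor (both chosen after their values were seen). Ly6d had 46 in the IRF8-labelled library and 632 in the vector-labelled library. With Siglech and Ccr9 this low, which cells gave the Ly6d counts cannot be told. The Ly6d difference is therefore no measure of plasmacytoid dendritic cells. Tcf4, a factor also expressed in many other cells, was higher (log2 ratio 0.31, 0.27 to 0.36), and Bst2, which interferon induces widely, was slightly lower (-0.09, -0.16 to -0.03). The 5 markers summed to 788.6 CPM in the IRF8-labelled library and 720.7 CPM in the vector-labelled library. Their part in the Gzmb result was not tested.

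Granzyme genes outside the 10 had no member with an interval below 0. Of 7 such genes 4 were measured, 2 of these had intervals above 0, and the median log2 ratio was 0.74. Gzmd had 38 counts in the IRF8-labelled library and 22 in the vector-labelled library, 1.96-fold higher (1.13 to 3.48), and Gzmg had 32 in the IRF8-labelled library and 17 in the vector-labelled library, 2.14-fold higher (1.15 to 4.11). Gzmc, with 43 counts in the IRF8-labelled library and 32 in the vector-labelled library, and Gzmf, with 17 in the IRF8-labelled library and 29 in the vector-labelled library, did not differ beyond counting error. These genes lie beside Gzmb on chromosome 14 and resemble each other. Of the 50-base words in transcripts of Gzmd, 21.9% also occur in another gene, and for Gzmg 19.8%, so their counts are uncertain. No such word of Gzma, Gzmb, Gzmk, Prf1, Nkg7, Tbx21, Klrd1, Klrk1 or Ncr1 occurs in another gene, and for Eomes the share was 2.10%.

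The same chromosome 14 cluster holds mast cell protease genes. Within 250 kb of the Gzmb start 7 further genes were measured, of which 3 were at least 1.5-fold lower and 2 at least 1.5-fold higher. The lower ones were Mcpt4, Mcpt2 and Mcpt1 and the higher ones Gzmd and Gzmg. Mcpt4 had 43 counts in the IRF8-labelled library and 185 in the vector-labelled library, Mcpt2 had 77 in the IRF8-labelled library and 168 in the vector-labelled library, and Mcpt1 had 60 in the IRF8-labelled library and 115 in the vector-labelled library (Mcpt1 and Mcpt2 were chosen after their values were seen). Around Nkg7, 5 of 12 measured neighbours were at least 1.5-fold higher and none lower. Around Klrd1 3 of 12 were at least 1.5-fold lower and 1 higher, around Klrk1, which shares most of these neighbours, 2 of 11 lower and 1 higher, and around Ncr1 1 of 11 lower and 1 higher. None passed 1.5-fold among the 13 measured neighbours of Tbx21, the 6 of Prf1, the 5 of Gzma, the 3 of Gzmk and the 2 of Eomes. Distances for Gzmk were taken from 113225908, not from its RefSeq start.

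Genes that load and release granules differed by small margins. All 16 were measured, and the median log2 ratio was -0.15. Intervals lay below 0 for 9 and above 0 for 1, beside 25.8% and 23.5% of all genes tested. At least 1.5-fold lower was 1 of the 16, beside 5.56%. Cst7, which encodes cystatin F, an inhibitor of the cathepsin that activates granzymes, had 50 counts in the IRF8-labelled library and 97 in the vector-labelled library, 1.71-fold lower (1.20 to 2.45). Srgn, the gene of serglycin, the proteoglycan that holds granzymes in the granule, was 1.37-fold lower (1.28 to 1.48), and Lyst, a regulator of lysosome size, had a log2 ratio of -0.44 (-0.59 to -0.29). Ctsl, a lysosomal cathepsin gene active in many cells, was 1.40-fold higher (1.36 to 1.44). Ctsc, the granzyme-activating cathepsin C gene, had 5030 counts in the IRF8-labelled library and 7088 in the vector-labelled library, 1.24-fold lower (1.20 to 1.29), and was chosen after its values were seen.

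Serpin genes counted as granzyme inhibitors split into opposite directions, with 3 of 6 intervals above 0 and 3 below. Serpinb9, whose product blocks granzyme B, had 5130 counts in the IRF8-labelled library and 3341 in the vector-labelled library, 1.74-fold higher (1.67 to 1.82). Its paralog Serpinb9b had 1532 counts in the IRF8-labelled library and 832 in the vector-labelled library, 2.09-fold higher (1.92 to 2.28). Both were higher in the library in which Gzmb was lower. The Serpinb6 genes, chosen after their values were seen, went both ways. Serpinb6b was 1.47-fold higher (1.37 to 1.58) and Serpinb6a 1.24-fold lower (1.20 to 1.28). Serpina3g had 1186 counts in the IRF8-labelled library and 2697 in the vector-labelled library, 2.00-fold lower (1.87 to 2.14), and Serpina3f had 234 in the IRF8-labelled library and 479 in the vector-labelled library, 1.80-fold lower (1.54 to 2.12). The Serpina3 genes share sequence, with 15.5% of the 50-base words of Serpina3g found in another gene. Whether the products of Serpina3g and Serpina3f act on granzymes was not tested, so the even split depends on the genes listed.

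Death ligands and effector cytokines were lower in 6 of 8 measured members by their intervals, beside 25.8% of all genes tested, and none was higher. Of the 8, 4 were at least 2-fold lower, beside 2.77%, and the median log2 ratio was -0.78. Ifng, the gene of interferon gamma, had 35 counts in the IRF8-labelled library and 88 in the vector-labelled library, 2.21-fold lower (1.48 to 3.37). Ccl4, a chemokine gene of activated lymphocytes and macrophages, had 123 counts in the IRF8-labelled library and 282 in the vector-labelled library, 2.02-fold lower (1.63 to 2.51). Ltb, the lymphotoxin beta gene, was 2.18-fold lower (2.00 to 2.37), and Tnfsf10, the gene of the death ligand TRAIL, 2.09-fold lower (1.85 to 2.36). These 3 genes are also expressed outside cytotoxic cells. Fasl, the gene of the death ligand of the Fas pathway, chosen after its values were seen, had 30 counts in the IRF8-labelled library and 51 in the vector-labelled library, and its interval held 0.

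Receptor genes of the natural killer gene complex on chromosome 6, where Klrd1 and Klrk1 lie, had no common direction. Of 12 listed genes 7 were measured, with intervals below 0 for 3, above 0 for 2 and a median log2 ratio of 0.05. Klrc1, whose product NKG2A pairs with CD94, had 106 counts in the IRF8-labelled library and 165 in the vector-labelled library, 1.37-fold lower (1.07 to 1.77), and shares 38.6% of its 50-base words with Klrc2 or Klrc3. Klrb1a had 8 counts in the IRF8-labelled library and 39 in the vector-labelled library, 4.29-fold lower (1.98 to 10.6), and Klrg1, a marker of terminally differentiated cells, had 20 in the IRF8-labelled library and 42 in the vector-labelled library, 1.85-fold lower (1.06 to 3.32). Klre1 had 51 counts in the IRF8-labelled library and 36 in the vector-labelled library, 1.61-fold higher (1.03 to 2.54). Of 11 Ly49 genes 4 were measured. Klra4 had 26 counts in the IRF8-labelled library and 73 in the vector-labelled library, 2.47-fold lower (1.56 to 4.03), Klra2 was 1.22-fold higher (1.06 to 1.40), and the intervals of Klra3 and Klra17 held 0.

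Among adaptor genes of these receptors 10 of 11 were measured, and the intervals held 0 for 7 of them, with a median of -0.08 on the log2 scale. Cd247, the zeta chain gene that T cells also need, was 1.57-fold lower (1.08 to 2.30), and Sh2d1b1, the gene of the adaptor EAT-2, was 1.60-fold higher (1.21 to 2.12). Fcer1g had a log2 ratio of 0.13 (0.04 to 0.22), and Sh2d2a had 196 counts in the IRF8-labelled library and 268 in the vector-labelled library. Ligand genes were measured for 4 of 6 in the table. The RAE-1 genes that encode ligands of NKG2D were higher, with Raet1e at 57 counts in the IRF8-labelled library and 26 in the vector-labelled library, 2.49-fold higher (1.54 to 4.13). Raet1d had 28 counts in the IRF8-labelled library and 12 in the vector-labelled library, but 55.8% of its 50-base words occur in Raet1e, which leaves uncertain how reads were divided between the pair. Ulbp1, another NKG2D ligand gene, had 463 counts in the IRF8-labelled library and 471 in the vector-labelled library, and its interval held 0. H2-T23, the gene of Qa-1, was 1.22-fold lower (1.18 to 1.26).

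**Figure D4:**
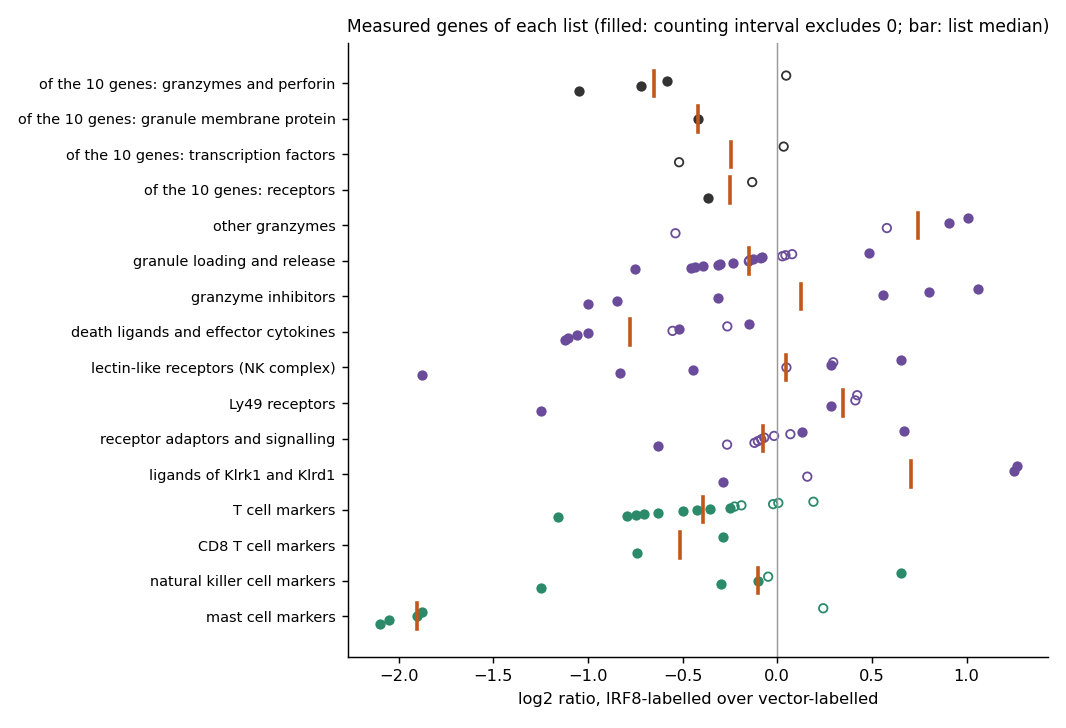
Log2 ratio, IRF8-labelled over vector-labelled, of each measured gene in the lists named at the left, with filled points where the counting interval excludes 0 and a bar at the list median. Medians run between -1.90 for mast cell markers and 0.74 for the other granzymes, and serpin genes listed as granzyme inhibitors fall on both sides of 0.

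Upstream signals and transcription factors were mixed. Of 14 measured effector and memory factors, 4 had intervals below 0 and 5 above, with a median log2 ratio of 0.02. Gata3, known from type 2 helper and innate lymphoid cells, had 11 counts in the IRF8-labelled library and 46 in the vector-labelled library, 3.68-fold lower (1.88 to 7.88), and Nfil3, a factor of natural killer cell development, was 1.45-fold lower (1.22 to 1.73). Bach2 was 1.42-fold lower (1.06 to 1.90), and Stat4, which carries the signal of interleukin 12, had 30 counts in the IRF8-labelled library and 24 in the vector-labelled library with an interval that held 0. Among cytokines and receptors that drive cytotoxic cells, 5 of 11 measured members had intervals below 0 and 1 above, with a median of -0.30. Il15ra, which presents interleukin 15 to natural killer and CD8 T cells, was 1.70-fold lower (1.45 to 2.00) and Il21r 1.49-fold lower (1.24 to 1.79). Il18rap, a subunit of the receptor for interleukin 18, was 1.64-fold higher (1.49 to 1.82), and Il12rb2 had 14 counts in the IRF8-labelled library and 28 in the vector-labelled library.

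Chemokine receptors of effector lymphocytes and their ligands had no common direction. Of 9 measured receptors and ligands 3 had intervals below 0 and 2 above, with a median log2 ratio of -0.30. Cxcl9 and Cxcl10, interferon-induced ligands of Cxcr3, were 2.26-fold (2.19 to 2.33) and 2.14-fold (2.04 to 2.24) lower, while Cxcl11, another ligand of Cxcr3, chosen after its values were seen, had 108 counts in the IRF8-labelled library and 152 in the vector-labelled library with an interval that held 0. Cx3cl1 was 1.47-fold lower (1.39 to 1.55). Its receptor gene Cx3cr1, found on effector lymphocytes and on macrophages, had 498 counts in the IRF8-labelled library and 327 in the vector-labelled library, a log2 ratio of 0.79 (0.59 to 1.00). Cxcr3, chosen after its values were seen, had 35 counts in the IRF8-labelled library and 58 in the vector-labelled library, and its interval held 0.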

How the data were processed

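Per the labels' protocols, 2 NEBNext Ultra libraries were made from RNA of whole tumour tissue. The table the authors deposited gives raw read counts of each gene, its length in bases and its coordinates. HISAT2 2.0.5, featureCounts 1.5.0-p3 and mm10 are named in the submitters' processing notes, and how multi-mapped reads were treated is not given there. No other columns of per-sample values were used.

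Scaling was by TMM (edgeR 4.0.16 under R 4.3.3). Log2 ratios come from log2 CPM values after adding a prior of 2 counts, and folds from scaled counts without it. Intervals of ratios are 95% Clopper-Pearson intervals of the share of counts, levels have exact Poisson intervals, and ratios of ratios have exact conditional intervals (scipy 1.17.1). All cover counting error only, since each group has 1 library. Reads carried no molecular identifiers, so repeated reads of 1 molecule may be counted as separate. Genes averaging at least 1 CPM are called measured. A gene called at least 1.5-fold or 2-fold lower or higher also had an interval excluding 0. The floor was set at 3 counts, which is 0.171 CPM in the IRF8-labelled and 0.150 CPM in the vector-labelled library. At a count of 0 the upper bound of the exact 95% Poisson interval is 0.210 CPM in the IRF8-labelled and 0.185 CPM in the vector-labelled library. The steps were tested on simulated data.

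The 10 genes and all lists were chosen with earlier results of these data known. From each list up to 4 measured genes with the largest absolute log2 ratio were named; others are marked. Symbols were matched through RefSeq (GRCm38.p6) synonyms, and 4 ligand genes (Raet1a, Raet1b, Raet1c and H60a) were not used here. Shared 50-base words, overlaps and principal transcripts came from GENCODE M21. Alternatives were other scalings (DESeq2 1.42.0 among them), a prior count of 0.5, other filters and other marker lists.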

Additional observations from a re-analysis of the deposited data

How the results depend on the processing

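No paired analysis was possible because each group has 1 library. The 50 single-gene ratios recomputed with library totals, DESeq2 size factors, upper-quartile factors, TMM over protein-coding genes without the hepatocyte, muscle and adipocyte markers, and a prior count of 0.5 stayed within their counting intervals and none changed sign; Gzmb ranged between -1.07 and -1.01 and Prf1 between -0.74 and -0.68. The same 5 genes had intervals below 0 under each scaling. Filters do not change single ratios. With no filter 15.5% of 26614 genes with a count had an interval below 0, and of the 11670 genes averaging 5 CPM or more 1.53% were at least 2-fold lower. The value per marker count depends on the list: the 10 genes were 1.14-fold lower per T cell marker count, 1.36-fold per pan-leukocyte, 1.30-fold per Cd3d, Cd3e and Cd3g, and, added after seeing the data, 1.45-fold per macrophage and monocyte marker count; per CD8 marker count the interval of the 1.15-fold value (1.00 to 1.31) reached no difference. Without Gzmb, also added then, the summed level was 1.33-fold lower; the cause was not tested. Depth limits Ncr1, Eomes and Tbx21, with at most 53 counts in a library.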
